A study of Mus musculus with 16 samples.

Results

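Splicing factor genes of 5 symbol families were followed through spermatogenesis in testes with and without Tex10. The families were the SR proteins (symbols starting with Srsf, 10 genes), the hnRNP proteins (Hnrnp, 20 genes), the SF3a and SF3b subunits (Sf3a and Sf3b, 9 genes), the snRNP proteins (Snrp, 12 genes) and the PRPF factors (Prpf, 13 genes). The symbol rule uses no measured value, though the families were chosen for study with earlier results of these data known, and 64 of the 13101 genes in the deposited table matched. RNA came from sorted spermatogenic cells of 8-week-old male C57BL/6J mice and was sequenced as polyA-enriched bulk libraries. The Tex10-deficient mice (Tex10f/-; Stra8iCre) had 1 floxed Tex10 allele, 1 null allele and the Stra8iCre transgene, whose promoter turns on in spermatogonia. The other mice were wild type, with no further allele named. Each genotype gave spermatogonia, MI spermatocytes, MII spermatocytes and spermatids, with 2 libraries per group and 16 in all. Whether both libraries of a group stem from different animals is not stated, and p-values therefore reflect only how far these libraries scatter, which may be technical.

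Splicing removes introns from pre-mRNA on the spliceosome, which is built from small nuclear RNAs and their proteins (snRNPs). A ring of Sm proteins, encoded by Snrp genes, holds most of the spliceosomal RNAs, the SF3a and SF3b subunits of the U2 snRNP bind the branch point, and PRPF factors join with the U4, U5 and U6 particles and carry the assembled complex through its steps. SR proteins bind exons and usually favour their inclusion, whereas hnRNP proteins coat pre-mRNA and often oppose them. The testis is known for extensive alternative splicing, and round spermatids still transcribe many genes, while transcription stops later, as the chromatin is compacted in elongating spermatids.

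Between 10044 and 12394 genes per library reached 1 FPKM (a fragment count scaled by transcript length and library size). FPKM levels are the deposited values minus 1, as the lowest deposited value was 1 in all 16 libraries; the labels do not say that 1 was added, and if it was not, each FPKM level is 1 too low while log2 changes are the same. Replicate libraries correlated across all genes with a Spearman rho between 0.881 and 0.971, and across the 64 members between 0.937 and 0.972. Titles and the cell type field disagree for 6 of the 8 Tex10-deficient libraries. Groups follow the titles, whose cell type was also that of the closest wild-type library (by Spearman rho over all genes) in 8 of 8 cases, whereas the field matched it in 2 of 8. Tex10 itself had 10.9 and 14.6 FPKM in Tex10-deficient MI spermatocytes, against 63.1 and 57.5 FPKM in wild-type ones, and was lower in both Tex10-deficient libraries of the other 3 cell types too (log2 change averaged over the 4 cell types -1.68 ± 0.15 SE, limma adjusted p = 0.0004885). Spermatid markers summed to 7296 to 14240 FPKM in spermatids and to at most 883 FPKM elsewhere. Spermatogonia markers summed to 199 to 366 FPKM in spermatogonia and to at most 92.6 FPKM elsewhere. Immune markers summed to 367 to 715 FPKM in spermatogonia, above the spermatogonia markers in every such library. Myoid and endothelial markers summed to 209 to 388 FPKM in spermatogonia. Late spermatocyte markers summed to 7663 to 8516 FPKM in spermatids, above their sums in MI spermatocytes. The libraries labelled MII spermatocytes went against their label. Their late spermatocyte markers summed to 171 to 1257 FPKM, against 3422 to 5361 FPKM in MI spermatocytes, and their Leydig cell markers to 944 to 1513 FPKM, against 22.7 to 72.3 FPKM. Their myoid and endothelial markers summed to 2475 to 4329 FPKM, against 51.4 to 189 FPKM in MI spermatocytes. The name MII is therefore only that of the label of these libraries, here and in the plots.

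The members were detected in every library, and 60 of 64 reached 1 FPKM in all of them. Of their 1024 values none was listed at 0, and they ran from 0.524 FPKM (Snrpb in a wild-type spermatid library) to 544.1 FPKM (Srsf5 in a Tex10-deficient spermatogonia library). The median of their mean levels was 22.5 FPKM, against 8.76 FPKM over all genes, and 49 of 64 averaged at least 10 FPKM, against 45.9% of all genes. Averaged over the 16 libraries, the most abundant were Hnrnpu, a nuclear matrix protein, with 299 FPKM, Srsf5, an SR protein, with 210 FPKM, Hnrnpul1, a relative of Hnrnpu, with 175 FPKM, and Hnrnpa3, an A/B-type hnRNP, with 130 FPKM. Hnrnpu overlaps Cox20 on the other strand, and 23 members in all overlap a gene on the other strand. Hnrnpm, Hnrnpul2, Snrpa1 and Snrpn overlap a gene on the same strand. The sources used here do not say whether counting used strand, so reads of such pairs cannot be told apart.

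**Figure D1:**
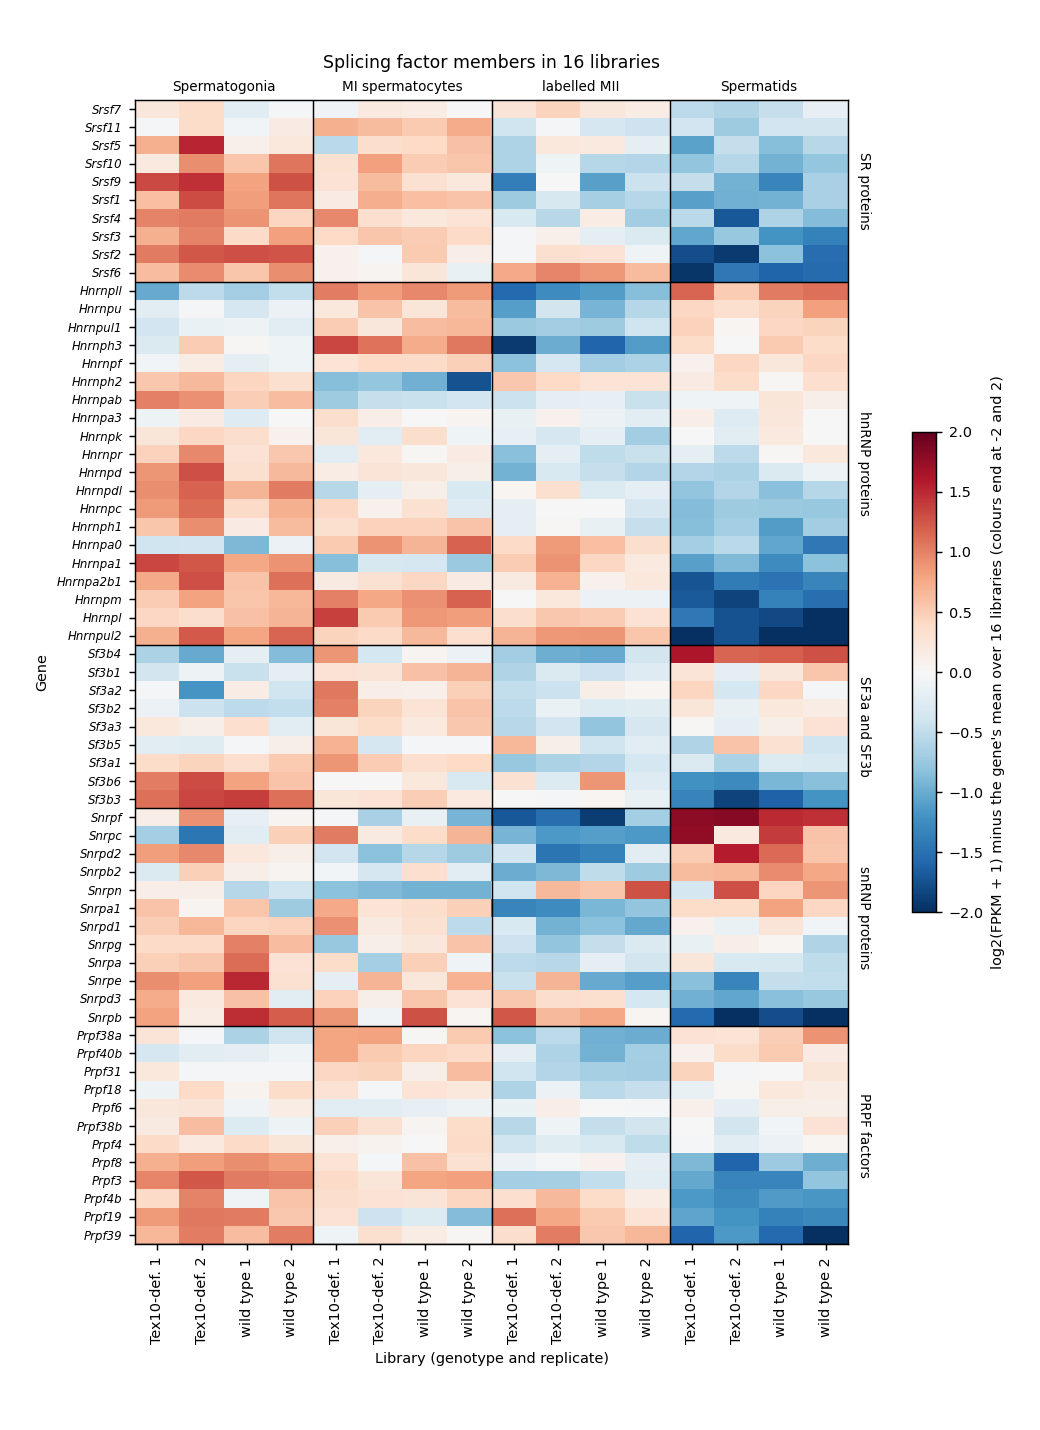
Each row is a splicing factor gene, grouped by family, and each column is 1 of 16 libraries, with Tex10-deficient left of wild type within each cell type. Colour gives log2(FPKM + 1) minus the gene's mean over the 16 libraries (red higher, blue lower), and the block of blue in spermatids covers nearly all SR proteins in both genotypes.

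In Tex10-deficient cells the median fold between the highest and the lowest cell type mean (on FPKM + 1) was 3.15 for members, against 5.36 over all genes, and in wild-type cells it was 2.79, against 5.12. In Tex10-deficient cells 33 of 64 members had their highest mean in spermatogonia, 20 in MI spermatocytes, 4 in the libraries labelled MII and 7 in spermatids. In wild-type cells these numbers were 31, 19, 2 and 12. The matching shares over all genes are not given, so these counts are not read as particular to the members. Summed over all 64 genes, Tex10-deficient libraries held 2841 and 3523 FPKM (spermatogonia), 2893 and 2851 (MI), 1735 and 2132 (MII), then 2245 and 2075 (spermatids). Wild-type libraries held 2683 and 2853 FPKM (spermatogonia), 2984 and 3090 (MI), 1899 and 1840 (MII), then 2336 and 2462 (spermatids). The total FPKM of a library differed as well, from 187713 to 533859. As a share of it the members made up 0.466% and 0.404% in Tex10-deficient spermatids, against 0.981% and 1.11% in Tex10-deficient MI spermatocytes, and 0.456% and 0.461% in wild-type spermatids, against 1.08% and 1.02% in wild-type MI spermatocytes. In bulk libraries fewer cells of a type and less RNA per cell cannot be told apart.

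The study set Tex10-deficient against wild-type cells, and none of the 64 splicing factors passed the test for a genotype difference. A gene counts as called where limma on log2(FPKM + 1) gave an adjusted p (Benjamini-Hochberg) below 0.05. In spermatogonia 0 of 64 members were called, where 0.0153% of all 13099 genes tested were. In MI spermatocytes it was 0 of 64 beside 0.168% of all genes (0.0534% higher, 0.115% lower), in the libraries labelled MII 0 beside 0.00763%, in spermatids 0 beside 0, and for the average of the 4 cell types 0 beside 0.0992% (0.0382% higher, 0.0611% lower). At an unadjusted p under 0.05, limma marked 4 members in spermatogonia, 1 in MI spermatocytes, 1 in the libraries labelled MII, 1 in spermatids and 0 for the average. The share of all genes under that threshold is not given, so these counts do not say whether members differ from other genes. The members' median log2 change was 0.11, 0.00, 0.07 and -0.16 in the 4 cell types in that order, beside -0.01, -0.00, -0.02 and -0.02 over all genes. The F test of whether the genotype difference varied between cell types called 0 members and 0 of all genes, with 0 members at an unadjusted p under 0.05 and a smallest adjusted p of 0.8026 for Prpf38a.

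Marker sums of some fractions also differed between genotypes, though the make-up of the fractions itself was not measured. In the libraries labelled MII, late spermatocyte markers summed to 171 and 343 FPKM in Tex10-deficient and 412 and 1257 FPKM in wild-type ones. All 15 of 15 were lower in the mean, with 11 at an unadjusted p under 0.05 and 0 called (limma). The share of all genes at that unadjusted threshold is not given. Spermatid markers summed to 358 and 716 FPKM in Tex10-deficient and 864 and 883 FPKM in wild-type libraries labelled MII. Immune markers there summed to 263 and 371 FPKM and 357 and 710 FPKM, which overlap. In spermatids the spermatid markers summed to 7296 and 10165 FPKM in Tex10-deficient and 12613 and 14240 FPKM in wild-type libraries, with 9 of 15 higher and 6 lower in the mean and 0 called. The part of these differences in the genotype values of the members was not tested.

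The scatter between these libraries gives a range for these differences, though it may leave out the variation between animals. In a given cell type the unadjusted 95% interval of a member's log2 change had a median half-width of 0.61. It lay within a 2-fold change of FPKM + 1 either way for 43 members in spermatogonia, 45 in MI spermatocytes, 48 in the libraries labelled MII and 45 in spermatids. For genes of low level the same bound is wider in FPKM. For the average of the 4 cell types the median half-width was 0.31 and all 64 intervals lay within that bound. The widest intervals, with a half-width of 1.07, leave room for larger differences.

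Some of the members with the smallest unadjusted p are given as values. Srsf5 had 308 and 544 FPKM in Tex10-deficient spermatogonia, against 203 and 218 FPKM in wild-type ones (log2 change 0.96 ± 0.39 SE, limma adjusted p = 0.6780). Snrpc, a protein of the U1 particle that reads the start of the intron, had 2.10 and 0.838 FPKM in Tex10-deficient spermatogonia, against 3.30 and 5.95 FPKM in wild-type ones (-1.19 ± 0.50, limma adjusted p = 0.6894). In both genes the genotypes did not overlap, but the 2 libraries of a genotype differed widely.

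Prpf38a, a factor needed to activate the assembled spliceosome, was among the 5 smallest p in 3 of the 4 cell types and for the average. It had 16.8 and 13.6 FPKM in Tex10-deficient spermatogonia, against 8.62 and 10.3 FPKM in wild-type ones, and 24.7 and 25.1 FPKM in Tex10-deficient MI spermatocytes, against 14.2 and 20.5 FPKM in wild-type ones. In spermatids it had 17.2 and 17.0 FPKM in Tex10-deficient libraries, against 20.0 and 26.7 FPKM in wild-type ones. The Tex10-deficient libraries thus lay above the wild-type ones in spermatogonia and MI spermatocytes and below them in spermatids, and no adjusted p passed (limma, 0.7088 in spermatogonia and 0.9106 in MI spermatocytes, with an unadjusted 0.1433 in spermatids). Snrpg and Snrpe, both Sm proteins, had the smallest p in MI spermatocytes and in the libraries labelled MII. Snrpg had 23.9 and 44.4 FPKM in Tex10-deficient MI spermatocytes, against 48.4 and 61.2 FPKM in wild-type ones (-0.72 ± 0.32, limma adjusted p = 0.8319), and Snrpe had 3.85 and 9.61 FPKM in Tex10-deficient libraries labelled MII, against 2.29 and 2.08 FPKM in wild-type ones (1.17 ± 0.45, limma adjusted p = 0.2486). In spermatids Srsf2, an SR protein of broad function, had 11.3 and 10.2 FPKM in Tex10-deficient libraries, against 23.0 and 13.7 FPKM in wild-type ones (-0.68 ± 0.28, limma unadjusted p = 0.03252, which did not pass after adjustment).

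**Figure D2:**
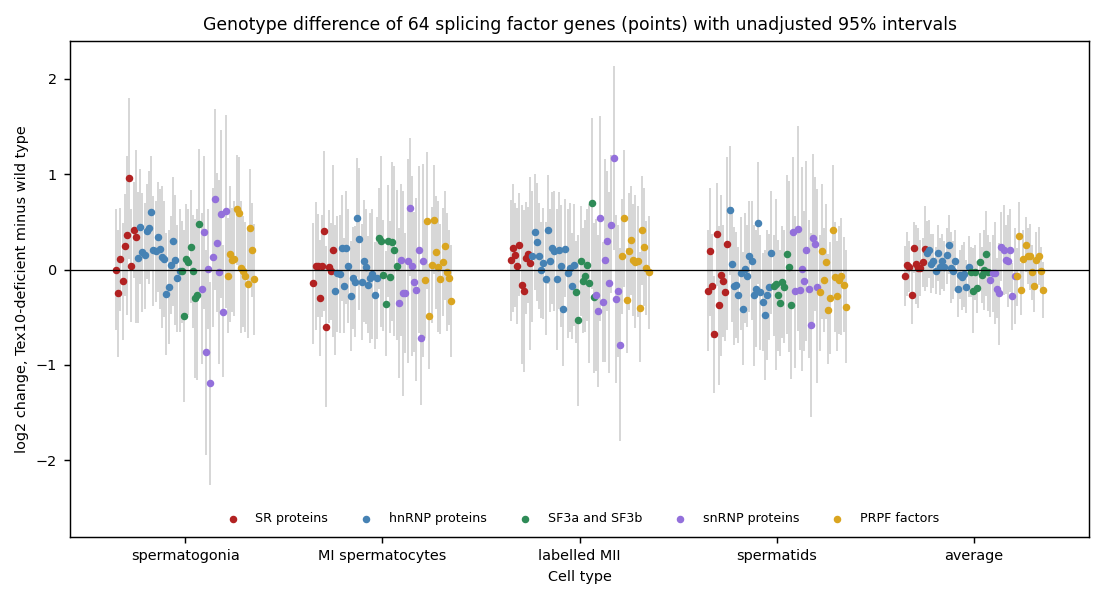
Points give the log2 change (Tex10-deficient minus wild type) of each of the 64 genes in each cell type and for the average of the 4 cell types, coloured by family, and grey lines give unadjusted 95% intervals. The points scatter around 0, with medians between -0.16 and 0.11, and none passed the test.

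Cell types differed far more than genotypes. From MI spermatocytes to spermatids, 35 of 64 members were called in Tex10-deficient cells (6 higher, 29 lower in spermatids), where 42.4% of all genes were, and 30 in wild-type cells (7 higher, 23 lower), where 42.3% of all genes were. Among all genes the calls leaned the other way, with 23.6% higher and 18.8% lower in Tex10-deficient cells and 22.6% higher and 19.8% lower in wild-type cells. The median log2 change of members was -0.57 in Tex10-deficient and -0.42 in wild-type cells, beside 0.01 and -0.01 over all genes. In this step 6 members were called higher in both genotypes, 22 lower in both, and 0 in opposite directions. From spermatogonia to MI spermatocytes, 25 members were called in Tex10-deficient cells (10 higher, 15 lower in MI spermatocytes), where 51.2% of all genes were, and 16 in wild-type cells (8 higher, 8 lower), where 51.9% of all genes were. Of these, 6 were higher and 8 lower in both genotypes, and 0 moved in opposite directions. How often the calls of all genes agreed between genotypes is not given, so the agreement in either step is not read as particular to the members.

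Some of these counts depend on scaling or on 1 library. Quantile normalization moved the median over all genes in the step to spermatids to -0.17 in both genotypes, with 3 members higher and 39 lower in Tex10-deficient cells, 3 higher and 36 lower in wild-type cells. In the step to MI spermatocytes that normalization moved the median of all genes to -0.24 in Tex10-deficient and -0.25 in wild-type cells, with 5 higher and 35 lower in Tex10-deficient cells and 2 higher and 27 lower in wild-type cells. Without Tex10-deficient MI library 1 that step had 11 calls, and without Tex10-deficient spermatogonia library 2 it had 10. In wild-type cells it had 5 without MI library 2, 8 without spermatogonia library 1 and 10 without spermatogonia library 2. Other cell types differed between these fractions as well. Immune markers summed to 4.64 to 9.05 FPKM in MI spermatocytes, against 367 to 715 FPKM in spermatogonia, with 15 of 15 called lower in both genotypes, and their part in the step from spermatogonia was not tested. In spermatids 2 of 15 immune markers and 1 of 8 Leydig cell markers were called higher than in MI spermatocytes for Tex10-deficient cells, and 1 of 15 and 0 of 8 for wild-type cells. Tex10-deficient spermatid library 2 held more of these than the other spermatid libraries, with a Leydig cell marker sum of 244 FPKM, against 16.6 to 80.1 FPKM.

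Nearly all SR proteins fell in spermatids. In Tex10-deficient cells 9 of 10 were lower in spermatids than in MI spermatocytes (median log2 change -1.31), and in wild-type cells 8 of 10 were (median -1.32), with 0 higher in either genotype and the same direction under quantile normalization (10 and 9 lower). Left-out libraries gave 6 to 9 lower in each genotype. Among all genes 18.8% were called lower in this step in Tex10-deficient and 19.8% in wild-type cells. The summed level of the SR proteins was 196 and 239 FPKM in Tex10-deficient spermatids, against 392 and 535 FPKM in Tex10-deficient MI spermatocytes, and 218 and 244 FPKM in wild-type spermatids, against 539 and 556 FPKM in wild-type MI spermatocytes. The spermatid sums lay below all MI sums in both genotypes.

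Srsf2, whose gene also overlaps Mettl23 and Mfsd11 on the other strand, fell in 2 steps. Tex10-deficient libraries had 85.9 and 98.8 FPKM (spermatogonia), 43.6 and 40.5 (MI), 39.9 and 51.7 (MII), then 11.3 and 10.2 (spermatids). Wild-type libraries had 102 and 99.5 FPKM (spermatogonia), 59.7 and 45.2 (MI), 50.6 and 38.6 (MII), then 23.0 and 13.7 (spermatids). Every spermatid library lay below every other library of its genotype. The log2 change in spermatids relative to MI spermatocytes was -1.87 ± 0.28 SE in Tex10-deficient (limma adjusted p = 0.0001572) and -1.49 ± 0.28 in wild-type cells (0.0008339). In MI spermatocytes relative to spermatogonia it was -1.12 in Tex10-deficient cells (limma adjusted p = 0.005281) and -0.94 ± 0.28 in wild-type cells (0.01317), where the call was lost without MI library 2, spermatogonia library 1 or spermatogonia library 2 (0.05473 to 0.1232).

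Srsf3, the smallest SR protein, had 9.57 and 11.8 FPKM in Tex10-deficient spermatids, against 27.7 and 31.1 FPKM in MI spermatocytes, and 8.49 and 7.55 FPKM in wild-type spermatids, against 29.9 and 27.4 FPKM (log2 changes -1.38 and -1.72, limma adjusted p 0.0005842 and 9.210e-05). Srsf6 followed another course, with its level kept up in the MII libraries. Tex10-deficient libraries had 23.4 and 29.5 FPKM (spermatogonia), 15.9 and 15.5 (MI), 25.8 and 30.1 (MII), then 3.11 and 4.87 (spermatids), and wild-type libraries had 22.3 and 29.2 FPKM (spermatogonia), 17.8 and 13.3 (MI), 27.8 and 23.5 (MII), then 4.24 and 4.44 (spermatids). Its fall in spermatids relative to MI spermatocytes was called in both genotypes, whichever library was left out (-1.77 and -1.62, limma adjusted p 0.0001868 and 0.0003427).

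Srsf1, the founding SR protein, Srsf9, its close relative, Srsf10, which represses splicing when dephosphorylated, and Srsf11 fell in both genotypes, with log2 changes from -1.47 to -1.17 in Tex10-deficient and from -1.39 to -1.01 in wild-type cells. The call of Srsf10 was lost without Tex10-deficient MI library 2 (limma adjusted p = 0.06146). That of Srsf9 was lost without any 1 of the 4 Tex10-deficient libraries compared (0.05502 to 0.1773) and without wild-type spermatid library 1 or either wild-type MI library (0.08460 to 0.1986). Srsf4 was called in Tex10-deficient and not in wild-type cells (-1.76, limma adjusted p = 0.002365, against -0.99 and 0.05404 in wild-type cells), as was Srsf7 (-0.63 and 0.04547, against -0.40 and 0.1860). Srsf5 was called in wild-type and not in Tex10-deficient cells (-1.20, limma adjusted p = 0.02460, against -0.66 and 0.1913 in Tex10-deficient cells). Leaving out any 1 library compared ended the calls of Srsf7 (0.05525 to 0.2111, also on leaving out libraries of other groups except MII) and of Srsf5 (0.06101 to 0.1334). No SR protein passed the F test, so the genotypes are not shown to differ in these falls.

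**Figure D3:**
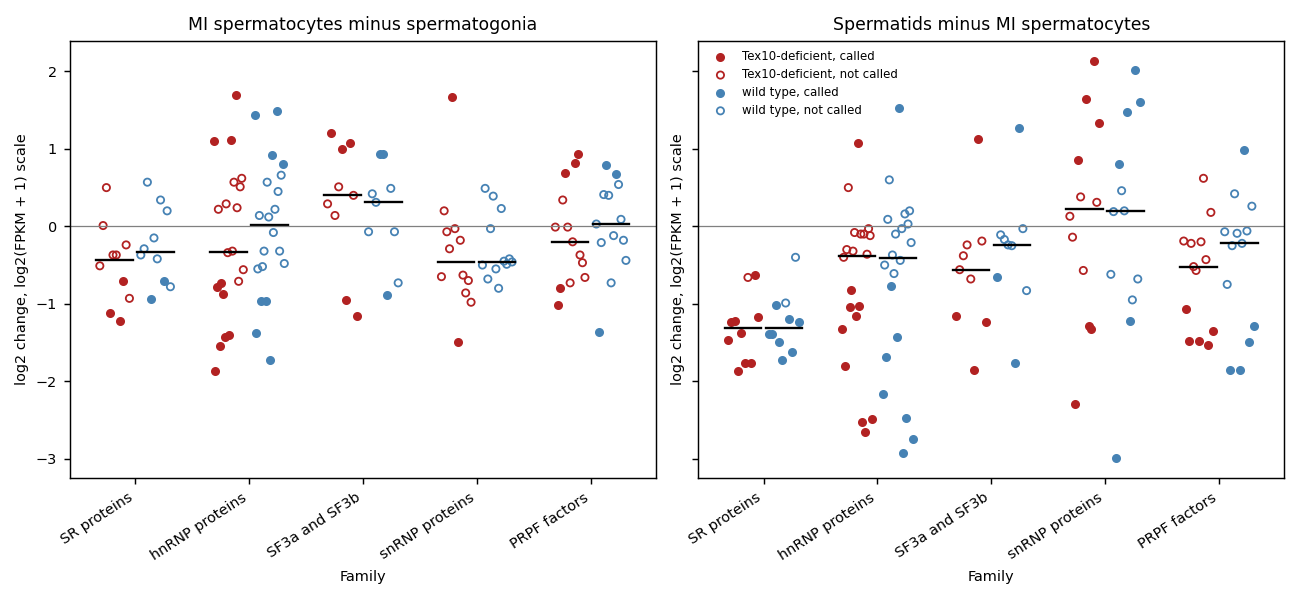
Points give the log2 change of each of the 64 genes from spermatogonia to MI spermatocytes (left) and from MI spermatocytes to spermatids (right), by family, in red for Tex10-deficient and blue for wild type. Filled points passed the test and black lines are family medians. The SR proteins lie below 0 in spermatids in both genotypes, with medians of -1.31 and -1.32.

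The hnRNP proteins differed among themselves in spermatids, with large falls of some members and little change in Hnrnpu, Hnrnpul1 and Hnrnpa3, the most abundant ones. In Tex10-deficient cells 9 of 20 were lower and 1 higher in spermatids than in MI spermatocytes (median log2 change -0.38), where 42.4% of all genes were called. In wild-type cells 7 were lower and 1 higher (median -0.41), where 42.3% of all genes were called. The number of calls in the family was thus near the share over all genes. Under quantile normalization 15 were lower and 1 higher in each genotype. Hnrnpl, which binds CA repeats and represses exons, had 7.97 and 6.23 FPKM in Tex10-deficient spermatids, against 61.2 and 33.9 FPKM in MI spermatocytes, and 5.94 and 3.74 FPKM in wild-type spermatids, against 43.2 and 42.3 FPKM. Spermatid and MI libraries were far apart in both genotypes (log2 change -2.53 ± 0.30 SE in Tex10-deficient cells, limma adjusted p = 2.358e-05, and -2.93 ± 0.30 in wild-type cells, 7.361e-06). Its paralog Hnrnpll, known for switching exons in lymphocytes, took another course. Tex10-deficient libraries had 25.0 and 35.4 FPKM (spermatogonia), 106 and 92.4 (MI), 16.9 and 21.0 (MII), then 116 and 73.4 (spermatids). Wild-type libraries had 31.7 and 36.2 FPKM (spermatogonia), 97.3 ± 5.95 (MI, mean and SD, n = 2), 23.1 and 27.9 (MII), then 107 and 111 (spermatids). It rose in MI spermatocytes relative to spermatogonia (1.70 ± 0.28 in Tex10-deficient cells, limma adjusted p = 0.0002538, and 1.49 ± 0.28 in wild-type cells, 0.0005936) and was not called between spermatids and MI spermatocytes (-0.10 and 0.16).

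Hnrnpm, a repressor and activator of alternative exons that overlaps March2, had 14.3 and 12.5 FPKM in Tex10-deficient spermatids, against 97.7 and 82.6 FPKM in MI spermatocytes, and 18.2 and 16.2 FPKM in wild-type spermatids, against 91.4 and 110 FPKM. Its fall was called in both genotypes (-2.66 ± 0.24, limma adjusted p = 7.630e-06, and -2.48 ± 0.24, 5.727e-06). Hnrnpul2, a relative of Hnrnpu, had 2.25 and 4.27 FPKM in Tex10-deficient spermatids, against 22.8 and 21.8 FPKM, and 2.49 and 2.86 FPKM in wild-type spermatids, against 26.6 and 21.2 FPKM (-2.49 ± 0.30, limma adjusted p = 2.642e-05, and -2.75 ± 0.30, 1.118e-05). These falls of Hnrnpl, Hnrnpm and Hnrnpul2 passed in every fit with 1 library left out, in each genotype. Hnrnpa0, an A/B-type hnRNP encoded without introns, rose before it fell. Tex10-deficient libraries averaged 9.94 ± 0.0845 FPKM in spermatogonia (SD, n = 2) and had 19.6 and 25.5 (MI), 17.6 and 24.7 (MII), then 7.90 and 8.83 (spermatids), and wild-type libraries had 6.66 and 12.2 FPKM (spermatogonia), 22.0 and 31.2 (MI), 20.7 and 17.3 (MII), then 5.96 and 4.31 (spermatids). Its rise in MI spermatocytes (1.10 in Tex10-deficient and 1.44 in wild-type cells, limma adjusted p 0.01092 and 0.001905) was lost in Tex10-deficient cells without MI library 2 (0.07478). Its fall in spermatids was called in both (-1.32 and -2.16, limma adjusted p 0.004320 and 0.0001011).

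The A/B proteins Hnrnpa1 and Hnrnpa2b1, textbook antagonists of SR proteins at splice sites, were called lower in both genotypes at different steps. Hnrnpa1 had 11.4 and 17.0 FPKM in Tex10-deficient MI spermatocytes, against 55.7 and 52.1 FPKM in spermatogonia, and 16.8 and 12.4 FPKM in wild-type MI spermatocytes, against 37.4 and 41.0 FPKM (-1.87, limma adjusted p = 0.0001304, and -1.38, 0.001101). Hnrnpa2b1 had 20.3 and 25.7 FPKM in Tex10-deficient spermatids, against 78.6 and 85.9 FPKM in MI spermatocytes, and 24.5 and 27.2 FPKM in wild-type spermatids, against 92.7 and 78.4 FPKM (-1.80, limma adjusted p = 0.0002285, and -1.69, 0.0003549). Between MI spermatocytes and spermatogonia Hnrnpa2b1 was called lower in Tex10-deficient cells as well (-0.78, limma adjusted p = 0.03572), a call lost without either MI library or spermatogonia library 2 (0.07327 to 0.2463). Hnrnpa1 has many processed pseudogenes, and the sources used here do not say how reads were divided between such copies. Hnrnpab, an RNA transport factor, also fell in MI spermatocytes relative to spermatogonia (-1.54 and -0.97, limma adjusted p 0.0001384 and 0.003341), with 30.9 and 37.2 FPKM in Tex10-deficient MI spermatocytes, against 104 and 97.6 FPKM, and 37.4 and 39.3 FPKM in wild-type ones, against 72.5 and 79.9 FPKM.

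Hnrnph2 is the only member on the X chromosome, which is silenced in meiotic spermatocytes. It had 3.50 and 3.75 FPKM in Tex10-deficient MI spermatocytes and 3.15 and 1.43 FPKM in wild-type ones, and between 7.19 and 11.7 FPKM in every library of the other cell types. MI spermatocytes thus did not overlap any other group. It fell in MI spermatocytes relative to spermatogonia (-1.40 ± 0.29, limma adjusted p = 0.001382 in Tex10-deficient, and -1.73 ± 0.29, 0.0002730 in wild-type cells) and was higher again in spermatids than in MI spermatocytes (1.08, limma adjusted p = 0.008864, and 1.53, 0.0008337), a call lost in Tex10-deficient cells without spermatid library 2 (0.05167). Its autosomal paralog Hnrnph1 had 105 and 116 FPKM in Tex10-deficient MI spermatocytes and 116 and 125 FPKM in wild-type ones, so that the ratio of Hnrnph1 to Hnrnph2 was 29.9 and 30.9 in Tex10-deficient and 36.8 and 87.5 in wild-type MI spermatocytes. In Tex10-deficient spermatids the ratio was 5.68 and 5.49, and in wild-type spermatids 5.29 and 5.56. Of the remaining family members, Hnrnph1 fell in spermatids relative to MI spermatocytes in both genotypes (-1.16 and -1.43), as did Hnrnpc (-1.04 and -0.77), whose call was lost without Tex10-deficient MI library 1 (limma adjusted p = 0.05989) and without either wild-type spermatid library or wild-type MI library 1 (0.1127 to 0.2953). Hnrnpd (-0.82) and Hnrnph3 (-1.03) were called in Tex10-deficient cells and not in wild-type ones (-0.37 and -0.44). The call of Hnrnpd was lost without any 1 of the 4 Tex10-deficient libraries compared (0.06863 to 0.1161), and that of Hnrnph3 without spermatid library 2 or either MI library (0.05874 to 0.1417). Hnrnpa1, Hnrnpab, Hnrnpdl and Hnrnpll were not called in that step, and Hnrnpa3, Hnrnpf, Hnrnpk, Hnrnpr, Hnrnpu and Hnrnpul1 were called in neither genotype in that step, with log2 changes from -0.36 to 0.20.

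**Figure D4:**
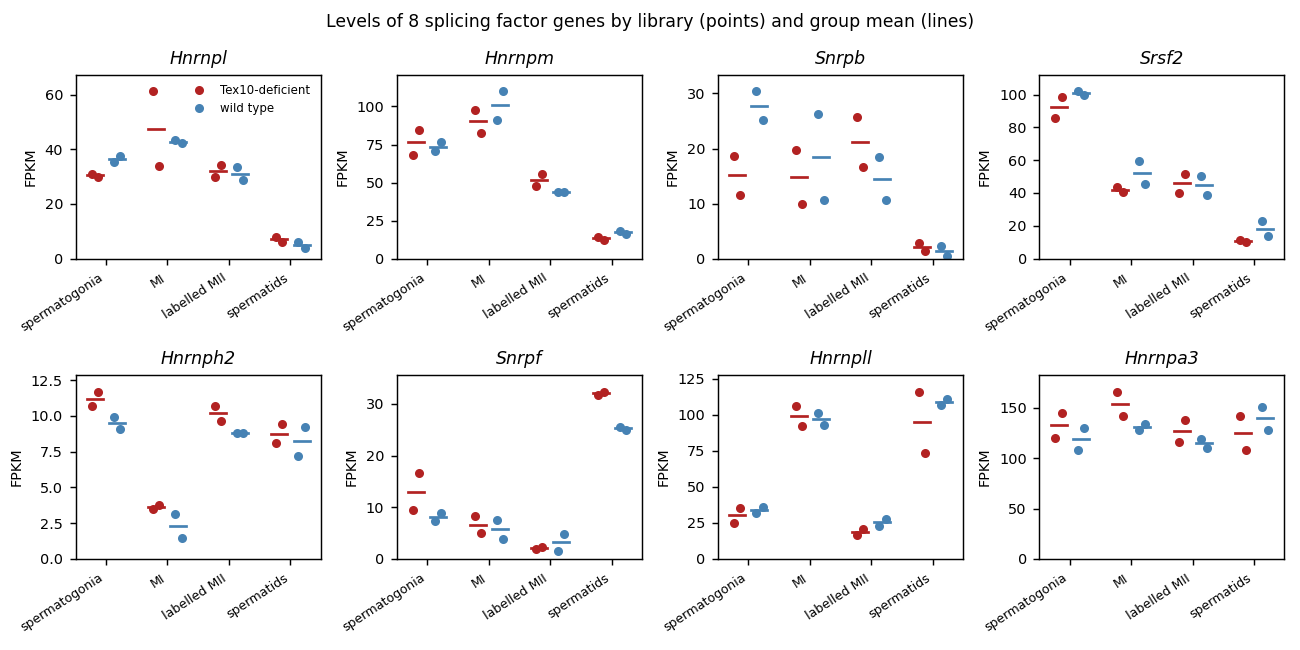
Points are libraries and short lines group means of FPKM for 8 genes across spermatogonia, MI spermatocytes, libraries labelled MII and spermatids, with Tex10-deficient (red) left of wild type (blue). Hnrnpl, Hnrnpm, Snrpb and Srsf2 are low in spermatids, Snrpf is high there, Hnrnph2 is low in MI spermatocytes, Hnrnpll is high in MI spermatocytes and spermatids, and Hnrnpa3 stays between 108 and 166 FPKM.

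Promoter sequence, from 250 bases before to 50 after the start, was matched by symbol for 56 of the 64 members in RefSeq (GRCm38.p6). Shown are a pair of hnRNP genes that fell in spermatids, an Sm gene that rose there and the X-linked gene. Capitals mark matches, on either strand, to CCAAT (the CCAAT box, ATTGG on the other strand) or TATAAA (the TATA box).
Hnrnpl, chr7:28810640-28810939, plus strand: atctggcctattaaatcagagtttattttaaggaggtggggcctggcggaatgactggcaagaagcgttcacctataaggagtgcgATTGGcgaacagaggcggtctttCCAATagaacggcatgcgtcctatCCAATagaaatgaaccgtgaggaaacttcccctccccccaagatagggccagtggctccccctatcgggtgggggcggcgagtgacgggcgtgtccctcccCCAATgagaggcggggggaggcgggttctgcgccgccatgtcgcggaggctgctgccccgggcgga
Hnrnpm, chr17:33685409-33685708, minus strand: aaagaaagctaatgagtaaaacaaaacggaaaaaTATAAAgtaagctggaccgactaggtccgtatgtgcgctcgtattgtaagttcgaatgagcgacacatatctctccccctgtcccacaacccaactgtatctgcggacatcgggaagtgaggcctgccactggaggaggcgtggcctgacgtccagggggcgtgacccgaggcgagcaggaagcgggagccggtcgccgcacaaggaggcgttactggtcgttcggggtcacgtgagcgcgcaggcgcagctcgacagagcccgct
Snrpf, chr10:93589609-93589908, minus strand: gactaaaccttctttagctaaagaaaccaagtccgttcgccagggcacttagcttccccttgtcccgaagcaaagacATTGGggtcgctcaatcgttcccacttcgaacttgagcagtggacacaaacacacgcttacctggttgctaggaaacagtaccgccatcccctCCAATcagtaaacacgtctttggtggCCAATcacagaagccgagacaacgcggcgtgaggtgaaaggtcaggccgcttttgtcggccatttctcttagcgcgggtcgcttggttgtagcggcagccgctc
Hnrnph2, chrX:134600929-134601228, plus strand: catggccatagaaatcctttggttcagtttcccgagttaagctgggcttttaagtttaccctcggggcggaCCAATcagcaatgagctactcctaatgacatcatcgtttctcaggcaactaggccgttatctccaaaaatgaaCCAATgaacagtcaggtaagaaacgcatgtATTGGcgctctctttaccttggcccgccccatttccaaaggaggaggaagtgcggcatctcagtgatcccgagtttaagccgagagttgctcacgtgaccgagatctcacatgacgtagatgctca
CCAAT was found in 47.4% of the 76 promoters of members, against 37.9% of the promoters of tested genes and 37.4% of all 32851 promoters in the table. The ETS core CCGGAAGT (ACTTCCGG on the other strand) was in 17.1% of members' promoters, 7.65% of those of tested genes and 3.89% of all, and TATAAA in 9.21%, 7.43% and 13.6%. The cAMP response element TGACGTCA was in 2.63%, 3.14% and 1.79%, and the NRF1 core GCGCATGC (GCATGCGC on the other strand) in 3.95%, 5.10% and 2.71%. Some genes have several promoters in the table and motifs can overlap, and the matches describe letters only.

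Of the 9 SF3a and SF3b subunits, 3 were lower and 1 higher in spermatids than in MI spermatocytes in Tex10-deficient cells (median log2 change -0.56), and 2 were lower and 1 higher in wild-type cells (median -0.24). As a share that was 44.4% called in Tex10-deficient and 33.3% in wild-type cells, where 42.4% and 42.3% of all genes were. The wild-type number of lower subunits was 1 without any 1 of the wild-type spermatogonia, MI or spermatid libraries or either Tex10-deficient spermatogonia library, and that of higher subunits was 0 without any 1 of the wild-type MI or spermatid libraries. In Tex10-deficient cells the number higher was 0 without spermatid library 1 or MI library 2. Sf3b3, a large scaffold subunit whose gene overlaps Cog4, had lower levels in each later cell type. Tex10-deficient libraries had 27.0 and 31.8 FPKM (spermatogonia), 14.4 and 15.0 (MI), 12.1 and 11.8 (MII), then 4.20 and 2.63 (spermatids). Wild-type libraries had 33.1 and 26.9 FPKM (spermatogonia), 17.4 and 14.0 (MI), 12.4 and 10.8 (MII), then 3.26 and 4.68 (spermatids). The spermatid libraries did not overlap those of any other cell type (spermatids relative to MI spermatocytes -1.86 ± 0.27, limma adjusted p = 0.0001252, and -1.76 ± 0.27, 0.0001685).

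Sf3b4, which contacts the pre-mRNA beside the branch point, ran the other way. It had 48.4 and 35.2 FPKM in Tex10-deficient spermatids, against 28.6 and 11.6 FPKM in MI spermatocytes, and 36.0 and 37.9 FPKM in wild-type spermatids, against 15.7 and 13.8 FPKM. The log2 change was 1.13 ± 0.39 in Tex10-deficient cells (limma adjusted p = 0.03075) and 1.27 ± 0.39 in wild-type cells (0.01761). In Tex10-deficient cells it was 1.75 without MI library 1 and 0.52 without MI library 2, and the call was lost without MI library 2 or spermatid library 1 (0.1690 to 0.3463). In wild-type cells it was lost without any 1 of the 4 libraries compared (0.05780 to 0.08590). Under quantile normalization the call of Sf3b4 was lost in both genotypes. In Tex10-deficient cells it was also lost in a fit of only the libraries compared. Sf3b1, the subunit mutated in myeloid cancers that holds the branch point, had 77.6 and 76.3 FPKM in Tex10-deficient MI spermatocytes, against 48.8 and 58.8 FPKM in spermatogonia, and 95.7 and 102 FPKM in wild-type MI spermatocytes, against 46.4 and 55.7 FPKM. The rise was called in wild-type cells (0.94 ± 0.26, limma adjusted p = 0.007016) and was lost under quantile normalization, without MI library 2 or without spermatogonia library 1 (0.05089 and 0.06557). In Tex10-deficient cells Sf3b1 was not called (0.51, limma adjusted p = 0.1091). Sf3b2 rose in this step in both genotypes (by 0.71 to 1.28 in Tex10-deficient cells over the fits with 1 library left out, limma adjusted p = 0.008245 with all, and by 0.94 in wild-type cells, 0.01066). Its call was lost under quantile normalization in both, without Tex10-deficient MI library 1 or spermatogonia library 2 (0.06886 and 0.09307) and without wild-type MI library 2 or spermatogonia library 1 (0.05500 and 0.09449). Sf3a1 fell in spermatids relative to MI spermatocytes in both genotypes (-1.16 and -0.66), but its wild-type call was lost without any spermatid, MI or spermatogonia library of wild type and without either spermatogonia library of Tex10-deficient cells (limma adjusted p 0.05553 to 0.1573). Sf3b6 was called in Tex10-deficient cells (-1.24, against -0.83 in wild-type cells, where it was not), and not without spermatid library 2 or either MI library (0.05370 to 0.05810) or under quantile normalization (0.05603). Sf3a2, Sf3a3, Sf3b1, Sf3b2 and Sf3b5 were called in neither genotype in that step.

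The snRNP proteins moved in both directions in spermatids, even within the Sm ring. Relative to MI spermatocytes 4 of 12 were higher and 3 lower in Tex10-deficient cells, where 42.4% of all genes were called. In wild-type cells 4 were higher and 2 lower, where 42.3% of all genes were called. The median log2 change of the 12 was 0.22 in Tex10-deficient and 0.20 in wild-type cells and turned to -0.36 and -0.21 under quantile normalization. In Tex10-deficient cells the number higher was 1 without spermatid library 2 or MI library 2, and 2 without MI library 1. In wild-type cells it was 1 without MI library 2 and 2 without MI library 1 or either spermatid library, and the number lower was 1 without spermatid library 1 or MI library 1. Snrpf, the Sm F protein, had 31.7 and 32.4 FPKM in Tex10-deficient spermatids, against 8.30 and 5.01 FPKM in MI spermatocytes, and 25.5 and 25.0 FPKM in wild-type spermatids, against 7.52 and 3.93 FPKM. All spermatid libraries lay above all libraries of the other cell types (2.14 ± 0.41, limma adjusted p = 0.0008878, and 2.02 ± 0.41, 0.001358). Its gene overlaps Ccdc38 and 4933408J17Rik on the other strand.

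Snrpb, which encodes the Sm B protein, had 2.84 and 1.41 FPKM in Tex10-deficient spermatids, against 19.8 and 9.84 FPKM in MI spermatocytes, and 2.33 and 0.524 FPKM in wild-type spermatids, against 26.3 and 10.7 FPKM. The fall was called in both genotypes (-2.30 ± 0.50, limma adjusted p = 0.002201, and -2.99 ± 0.50, 0.0002947), and in wild-type cells it was -2.38 without MI library 1 and -3.60 without MI library 2. Snrpn, an imprinted paralog best known from brain, encodes an Sm N protein that can stand in for Sm B, and its gene overlaps Snurf on the same strand. It had 1.44 and 6.57 FPKM in Tex10-deficient spermatids, against 0.760 and 0.671 FPKM in MI spermatocytes, and 3.16 and 4.68 FPKM in wild-type spermatids, against 0.606 and 0.607 FPKM (1.33, limma adjusted p = 0.03630, and 1.60, 0.01464). The ratio of Snrpb to Snrpn was 1.97 and 0.215 in Tex10-deficient spermatids, against 26.1 and 14.7 in MI spermatocytes, and 0.738 and 0.112 in wild-type spermatids, against 43.3 and 17.7. The ratio was below that of MI spermatocytes in every spermatid library, and 3 of these 4 libraries had more Snrpn than Snrpb. Snrpn in MI spermatocytes and Snrpb in a wild-type spermatid library were below 1 FPKM, so the ratios depend on the inferred subtraction of 1. In the libraries labelled MII, Snrpn had 1.36 and 3.86 FPKM (Tex10-deficient) and 3.57 and 6.46 FPKM (wild type). Tex10-deficient spermatid library 2, with 6.57 FPKM of Snrpn, had the Leydig cell marker sum of 244 FPKM. The part of other cell types was not tested. The call of Snrpn in Tex10-deficient cells rested on the uneven spermatid libraries: its log2 change was 2.14 without spermatid library 1 and 0.51 without spermatid library 2, and it was lost without the second of these or either MI library (limma adjusted p 0.09742 to 0.4000). In wild-type cells it was lost without spermatid library 2 or either MI library (0.05898 to 0.1032).

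Snrpd2, the Sm D2 protein, had 45.4 and 95.7 FPKM in Tex10-deficient spermatids, against 24.0 and 17.4 FPKM in MI spermatocytes, and 70.5 and 46.8 FPKM in wild-type spermatids, against 21.0 and 18.9 FPKM (1.64, limma adjusted p = 0.008422, and 1.48, 0.01508). In Tex10-deficient cells the call was lost without spermatid library 2 or MI library 2 (0.06589 and 0.09757), and in wild-type cells without spermatid library 1 or either MI library (0.05529 to 0.1162). Snrpd3, the Sm D3 protein, fell (-1.29 and -1.22, limma adjusted p 0.007394 and 0.01036), with 3.78 and 3.50 FPKM in Tex10-deficient spermatids, against 11.8 and 9.10 FPKM, and 4.18 and 4.52 FPKM in wild-type spermatids, against 12.7 and 10.3 FPKM. Its call was lost without Tex10-deficient MI library 1 (0.05569) and without wild-type spermatid library 1 or MI library 1 (0.05681 and 0.07831). Neither Snrpd2 nor Snrpb2 passed under quantile normalization. Snrpb2, a protein of the U2 particle, was higher in spermatids in both genotypes (0.85 and 0.81, limma adjusted p 0.03190 and 0.03932), a call lost in Tex10-deficient cells without any 1 of the 4 libraries compared (0.05145 to 0.1613) and in wild-type cells without either spermatid library, MI library 2 or either spermatogonia library (0.05250 to 0.2752). Snrpe was called lower in Tex10-deficient cells (-1.32, limma adjusted p = 0.02918, against -0.95 and 0.1045 in wild-type cells), and not without spermatid library 2 or MI library 2 (0.1462 and 0.2276). Snrpa, Snrpa1, Snrpc, Snrpd1 and Snrpg were called in neither genotype in that step.

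Of the 13 PRPF factors, 5 were lower and 0 higher in spermatids than in MI spermatocytes in Tex10-deficient cells (median log2 change -0.52), and 4 were lower and 1 higher in wild-type cells (median -0.22). That was 38.5% called in each genotype, where 42.4% of all genes were in Tex10-deficient and 42.3% in wild-type cells. Prpf8, the large U5 protein at the heart of the spliceosome, had 30.4 and 18.5 FPKM in Tex10-deficient spermatids, against 69.4 and 55.6 FPKM in MI spermatocytes, and 34.4 and 28.7 FPKM in wild-type spermatids, against 86.5 and 71.2 FPKM (-1.35, limma adjusted p = 0.001355, and -1.29, 0.001837). Prpf3, a U4 and U6 protein, had 12.0 and 9.61 FPKM in Tex10-deficient spermatids, against 33.4 and 30.2 FPKM, and 9.54 and 14.3 FPKM in wild-type spermatids, against 44.7 and 45.4 FPKM (-1.48, limma adjusted p = 0.0004129, and -1.86, 5.857e-05). Spermatid and MI libraries did not overlap for either gene. Its partner Prpf4 was not called (-0.20 and -0.22), nor was Prpf31, which joins the same particle (-0.22 and -0.25), nor Prpf6, which bridges it to U5 (0.18 and 0.26). Differences between these genes were not tested.

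Prpf4b, a kinase of spliceosomal proteins, and Prpf39, a U1-associated protein, fell in both genotypes (-1.53 and -1.49, limma adjusted p 0.0007624 and 0.0009078, and -1.48 and -1.86, 0.002281 and 0.0004038). Prpf19, the ubiquitin ligase that names a large activating complex, was low throughout, with 4.37 and 2.29 FPKM in Tex10-deficient MI spermatocytes, against 6.88 and 8.10 FPKM in spermatogonia, and 2.63 and 1.39 FPKM in wild-type MI spermatocytes, against 7.98 and 5.38 FPKM. It fell in this step (-1.01 and -1.36, with a limma adjusted p of 0.003657 in wild-type cells), in wild-type cells a call lost without MI library 2 (0.05487). In Tex10-deficient cells the adjusted p was 0.02099, and the call was lost without MI library 2 or spermatogonia library 2 (0.09782 and 0.1824). Between spermatids and MI spermatocytes it was called in Tex10-deficient cells (-1.07, 0.01920), though not without either spermatid library or MI library 1 (0.05330 to 0.1686), and not in wild-type cells (-0.75, 0.08543). Prpf18, Prpf38a, Prpf38b and Prpf40b were called in neither genotype between spermatids and MI spermatocytes.

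In wild-type libraries labelled MII, 5 of 64 members were called higher and 25 lower than in MI spermatocytes, where 57.2% of all genes were called (30.0% higher, 27.2% lower). Without MI library 2 there were 16 calls in place of 30. In wild-type spermatids 19 members were higher and 17 lower than in the libraries labelled MII, where 73.8% of all genes were called, and under quantile normalization 14 were higher and 28 lower. Hnrnph3 fell in the wild-type libraries labelled MII, with 8.55 and 12.2 FPKM, against 47.0 and 58.3 FPKM in MI spermatocytes (-2.25 ± 0.35, limma adjusted p = 0.0001253). In the same comparison 8 of 8 Leydig cell markers and 15 of 15 immune markers were called higher and 14 of 15 late spermatocyte markers lower, and their part in the members' changes was not tested.

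Splicing factors outside the 5 symbols were read from 5 lists of other spliceosomal proteins and regulators. Between genotypes 0 genes of these lists were called in any cell type. The 36 snRNP proteins with other symbols had 4 higher and 13 lower in spermatids relative to MI spermatocytes in Tex10-deficient cells, and 4 higher and 14 lower in wild-type cells. Over all genes 42.4% were called in this step in Tex10-deficient cells (23.6% higher, 18.8% lower). In wild-type cells it was 42.3% (22.6% higher, 19.8% lower). U2af2, which binds the pyrimidine tract next to the branch point, had 1.31 and 2.94 FPKM in Tex10-deficient spermatids, against 24.1 and 19.1 FPKM in MI spermatocytes, and 3.11 and 1.96 FPKM in wild-type spermatids, against 17.8 and 18.4 FPKM (-2.90, limma adjusted p = 1.764e-05, and -2.45, 4.113e-05). Of 16 snRNP assembly factors tested, 3 were higher and 3 lower in Tex10-deficient spermatids and 5 higher and 3 lower in wild-type spermatids. Ddx20, a helicase of the SMN complex that loads Sm rings, had 220 and 204 FPKM in Tex10-deficient spermatids, against 52.8 and 39.5 FPKM in MI spermatocytes, and 195 and 202 FPKM in wild-type spermatids, against 36.8 and 41.9 FPKM (2.19, limma adjusted p = 0.0001453, and 2.31, 8.005e-05). Prmt5, which methylates Sm proteins before assembly, fell (-1.88 and -1.67, limma adjusted p 0.0001751 and 0.0004093).

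Among 22 SR-related proteins and SR kinases, 1 was higher and 11 lower in Tex10-deficient spermatids than in MI spermatocytes, and 2 were higher and 11 lower in wild-type ones. Over all genes 42.4% and 42.3% were called in these comparisons. Srpk1, a kinase of SR proteins, had 260 and 264 FPKM in Tex10-deficient spermatids, against 228 and 224 FPKM in MI spermatocytes, and 266 and 296 FPKM in wild-type spermatids, against 145 and 200 FPKM, and was not called (0.21 and 0.71). It had risen in MI spermatocytes relative to spermatogonia, where it had 49.6 and 62.1 FPKM in Tex10-deficient and 48.0 and 60.0 FPKM in wild-type cells (limma adjusted p 0.002149 and 0.006677), a call lost in wild-type cells without MI library 2 or spermatogonia library 1 (0.05138 and 0.06346) and in both genotypes under quantile normalization (0.05070 and 0.1762). Clk4, another SR protein kinase, rose in spermatids in both genotypes (1.38 and 1.11, limma adjusted p 0.007929 and 0.02581), a call lost under quantile normalization (0.3113 and 0.6344), without Tex10-deficient spermatid library 2 or MI library 1 (0.07066 and 0.1094) and without either wild-type spermatid library or MI library 1 (0.05293 to 0.1633). Luc7l3, a U1-associated protein with an arginine and serine rich tail, fell with the SR proteins (-2.32 and -2.49, limma adjusted p 3.171e-05 and 1.520e-05).

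The 25 factors of the Prp19 complex and the catalytic steps had 2 higher and 7 lower in Tex10-deficient spermatids and 3 higher and 8 lower in wild-type spermatids, relative to MI spermatocytes. Of 28 hnRNP-type and tissue regulators tested, 1 was higher and 10 lower in Tex10-deficient spermatids and 0 higher and 10 lower in wild-type spermatids. Both lists stand beside 42.4% of all genes called in Tex10-deficient and 42.3% in wild-type cells. The number of calls is thus not read as a trait of these lists. Pcbp1, a poly(C)-binding protein also known as hnRNP E1, had 6.02 and 7.52 FPKM in Tex10-deficient spermatids, against 72.6 and 31.4 FPKM in MI spermatocytes, and 8.24 and 3.37 FPKM in wild-type spermatids, against 48.0 and 31.6 FPKM (-2.66, limma adjusted p = 0.0001996, and -2.65, 0.0001796), a change that ran from -3.25 to -2.07 with either Tex10-deficient MI library left out. Its relative Pcbp3 rose in MI spermatocytes, with 123 and 87.3 FPKM in Tex10-deficient ones, against 2.63 and 8.07 FPKM in spermatogonia, and 99.4 and 116 FPKM in wild-type ones, against 6.63 and 9.73 FPKM (4.19, limma adjusted p = 2.359e-05, with 3.53 to 4.85 on leaving out either Tex10-deficient spermatogonia library, and 3.58, 6.867e-05). Ptbp2, the neuronal and germ cell form of the polypyrimidine tract binding protein, had 28.5 to 38.3 FPKM in spermatids and 38.4 to 48.0 FPKM in MI spermatocytes and was not called between them (-0.46 and -0.27). Rbmx, an X-linked hnRNP, had 1.53 and 1.99 FPKM in Tex10-deficient MI spermatocytes, against 10.2 and 9.19 FPKM in spermatogonia, and 1.12 and 0.873 FPKM in wild-type ones, against 6.19 and 4.35 FPKM, a fall in both genotypes as for Hnrnph2 (-1.96 and -1.64, limma adjusted p 0.0001221 and 0.0004051).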

How the data were processed

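PolyA-enriched bulk libraries were sequenced from sorted spermatogenic cells. The sorting method is not stated in the labels. Tools named per the submitters' processing notes were Cufflinks 2.2.1, STAR 2.7.6a, cutadapt, Trim Galore 0.6.3 and FastQC 0.10.1, and the build was mm10. The values deposited by the authors were taken as FPKM with 1 added, and 1 was subtracted. The added 1 was inferred from the lowest value, which was 1 in all 16 libraries, and from the decimals, and no label states it. The gene 1110002L01Rik was left out because 1 cell held a letter. Read numbers are unknown, so no counting intervals are given, and FPKM totals are not a depth.

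A gene was tested where 2 or more libraries reached 1 FPKM, which held for 13099 genes and all 64 members. Tests used limma 3.58.1 (R 4.3.3; lmFit, then eBayes with a trend) on log2 of FPKM plus a pseudocount of 1, in 1 fit of 8 groups with 8 residual degrees of freedom, and p-values were Benjamini-Hochberg adjusted over all genes tested. This scale understates changes of low genes. The steps were tested on simulated data. The members' families, the gene lists and the tests were chosen with earlier results of these data known. Genes were named by these rules: per comparison of cell types, the largest called changes, up to 6 each way, whose groups did not overlap and whose higher group averaged 5 FPKM or more; per genotype comparison, the 5 smallest p; the 3 most abundant members of a family; paralog pairs and X-linked members; and up to 2 per direction of each further list. These rules picked more genes than are described here, above all in the genotype comparisons and those with the libraries labelled MII. Further members, and Srpk1, Clk4, Luc7l3, Ptbp2 and Rbmx, were named after their values were seen. The individual values of 1 member are not reported here, though it is counted among the 64. Gene positions and overlaps are from GENCODE M21 (GRCm38), and promoters from RefSeq (GRCm38.p6). Alternatives changed the pseudocount (0.1 or 5), the filter (none or 5 FPKM), the scaling (quantile normalization or median of ratios), the fit (no trend, array weights, a replicate block) and the libraries (the field in place of the title, agreeing labels alone, those compared alone, none of MII, or each left out). Tables and figures were made with Python 3.11.15, pandas 2.3.3 and matplotlib 3.10.9.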

Additional observations from a re-analysis of the deposited data

How the results depend on the processing

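The number of genotype calls among the 64 members was 0 under every alternative that kept the groups by title. With Tex10-deficient libraries grouped by the cell type field, 5 members were called between genotypes in MI spermatocytes, 11 in MII spermatocytes and 10 in the F test, and 0 in the step from spermatogonia to MI spermatocytes and 5 in that from MI spermatocytes to spermatids within Tex10-deficient cells. The calls over all genes under that grouping are not given, so these counts are not read as particular to the members. Only 1 Tex10-deficient spermatogonia library and 1 spermatid library have a title and field of the same type. With these alone 0 members were called in either, but a lone library is assumed to vary like the other groups, and this count says nothing about stability. Quantile normalization gave 40 calls in Tex10-deficient and 29 in wild-type cells in the step to MI spermatocytes, and turned the change of Hnrnpul1 in that step in wild-type cells to -0.33, against 0.80 in the analysis as reported. Only the libraries compared gave 19 calls between MII and MI spermatocytes. With each library left out, calls ran from 10 to 27 in Tex10-deficient cells and from 5 to 16 in wild-type cells from spermatogonia to MI spermatocytes, from 24 to 35 and 21 to 33 from MI spermatocytes to spermatids, from 16 to 32 between MII and MI spermatocytes and from 30 to 37 between spermatids and MII libraries, and stayed at 0 in each genotype comparison. The cause of these shifts was not tested, except that fewer libraries enter the fits with some left out. Calls over all genes in these fits are not given either.

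The replicate numbers are shared between groups, but nothing says that a number marks a shared animal. Deviations of same-numbered libraries correlated between -0.13 and 0.31 for the 2 genotypes of a cell type. For 6 pairs of cell types they correlated between -0.08 and 0.42 in Tex10-deficient cells and between 0.14 and 0.36 in wild-type cells. Groups that differ in both genotype and cell type correlated between -0.22 and 0.22. These ranges overlap and do not settle whether any numbers pair, so each block is given here. With replicate number as a block term common to the genotypes, 0 members were called between genotypes in each cell type, 28 in Tex10-deficient and 20 in wild-type cells in the step to MI spermatocytes, and 37 and 32 in that to spermatids. With a block within each genotype these were 0, 28 and 19, and 38 and 32. Among all genes the shared block called 7109 in Tex10-deficient and 7194 in wild-type cells in the step to MI spermatocytes, and 6014 and 6013 in that to spermatids. The block within genotype called 7259 and 7335, and 6208 and 6196. Over all genes the calls between genotypes in the libraries labelled MII were 268 with the shared block and 318 with the block within genotype, against 1 without a block.

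The 2 libraries per group limit the precision, as a member's log2 change between genotypes in 1 cell type had a median 95% half-width of 0.61. Grouping rests on titles that the cell type field contradicts for 6 libraries, and read numbers and strand use are unknown.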
